A study of Mus musculus with 16 samples.

Results

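Chemokine signaling was examined in brown adipose tissue (BAT) through 10 genes chosen by name, the CC ligands *Ccl2*, *Ccl6*, *Ccl7*, *Ccl8*, *Ccl9* and *Ccl11*, the CXC ligands *Cxcl1* and *Cxcl12*, and the receptors *Ccr2* and *Cx3cr1*. They are 10 of the 49066 genes to which the deposited transcript values could be summed. Bulk RNA sequencing had been performed in BAT of 16 mice, with 4 wild type (WT) and 4 GDF15 BKO (KO) animals of each sex. All mice were on the C57BL6/J background, homozygous for the floxed *Gdf15* allele, 18 weeks old, and fed a high-fat diet with 60% of its calories from fat for 12 weeks from 6 weeks of age. The KO mice also carried a Cre transgene driven by the *Ucp1* promoter, whereas the WT littermates did not, so the deletion is limited to *Ucp1*-expressing thermogenic adipocytes and the other cells of KO tissue keep *Gdf15*. Values are in TPM, a transcript abundance that is corrected for transcript length and scaled to the same sum in every library, so levels can be compared between genes, but that keeps no record of read depth. The depth behind each value is thus unknown, and error is given as the SD over the 4 mice of a group.

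Chemokines are small secreted proteins that attract leukocytes along gradients by binding G protein-coupled receptors. *Ccl2* and *Ccl7* encode ligands of CCR2, the receptor that brings inflammatory monocytes into tissue, and adipose tissue of obese animals is known for its recruitment of CCR2-bearing monocytes that become macrophages. *Cxcl12* encodes a ligand of CXCR4 made by stromal and endothelial cells, *Ccl11* encodes eotaxin, an attractant of eosinophils, and *Cxcl1* encodes an attractant of neutrophils that signals through CXCR2.

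*Gdf15*, the deleted gene, was low in all libraries. In males it was 0.37, 0.69, 1.55 and 3.81 TPM in WT and 0.09, 0.08, 0.25 and 0.27 TPM in KO, and every KO library lay below every WT library (log2 difference -1.38, exact permutation p = 0.0286, the smallest p that 4 against 4 allows). In females it was 0.06, 0.31, 0.17 and 0.29 TPM in WT and was listed at 0 in 3 KO libraries and at 0.08 TPM in KO replicate 3, which was above WT replicate 1 (log2 difference -0.43, exact permutation p = 0.0571). The genotype labels therefore matched the level of the deleted gene in males, and in females apart from that 1 overlap. The highest *Gdf15* value, 3.81 TPM, was that of male WT replicate 4, 2.465 times the next library. The male WT mean was 1.60 TPM with that library and 0.868 TPM without it. *Ucp1*, which marks brown adipocytes, was at 2353 to 4423 TPM, so all 16 libraries had the leading marker of their labelled tissue.

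Male WT replicate 4 stood apart from the other libraries before any comparison of genotypes. Of 12210 genes with a mean of at least 1 TPM, 21 (0.172%) had their highest value there and at least 2 times the value of the next library. Between 4 and 15 genes were led in this way by each of the other libraries except female WT replicate 4, which led 84. Immediate early genes, which are transcribed within minutes of a stimulus, made up much of the male WT replicate 4 set, with 10 of the 15 on the list led by that library and a summed level of 1050 TPM against 49.9 to 413 TPM in the other 15. *Fosb*, an AP-1 subunit, was at 101 TPM there and at most 5.14 TPM elsewhere. *Egr2*, a zinc finger transcription factor, was at 21.9 TPM against at most 1.16 TPM. *Fos*, also an AP-1 subunit, was at 171 TPM against at most 27.1 TPM. Large gaps were also found for *Mir125a* and *Snord14d*, both listed at 0 in the other 15 libraries, and for *Egr1*, *Junb*, *Egr3* and *Btg2*. *Mir125a*, *Snord14d*, *Fosb*, *Egr2* and *Egr3* reached the mean of 1 TPM only through male WT replicate 4, so the count of 21 is only a description.

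None of the 6 members with a mean of at least 1 TPM was among those 21 genes, but *Cxcl1* and *Ccl7*, which lie below that mean, were led by male WT replicate 4. With a lower minimum mean of 0.5 TPM, which all 10 passed, 33 of 13981 genes (0.236%) were led by this library. *Cxcl1* reached that minimum only through this library, so nothing is read from the 2 of 10 beside that share. *Cxcl1* was at 5.05 TPM there, 5.57 times the next library, and *Ccl7* at 5.93 TPM, 3.11 times the next. *Ccl2* was also highest there, at 6.45 TPM, but male KO replicate 4 reached 4.52 TPM, a ratio of 1.43 that left it outside the set. The other 7 genes were not highest in this library. Further chemokine genes below the minimum of 1 TPM followed the same library, with *Ccl4* at 4.18 TPM against at most 0.51 TPM elsewhere, *Ccl3* at 3.34 TPM against 0.84 TPM, and *Cxcl2* at 1.40 TPM against 0.43 TPM. *Ccl3*, *Ccl4* and *Cxcl2* encode attractants of monocytes, lymphocytes and neutrophils. Of 22 inflammatory inducers and NF-kB targets, 3 were led by it, *Socs3* (8.45 against 2.23 TPM), *Il1b* (3.10 against 0.83 TPM) and *Ptgs2* (0.23 against 0.04 TPM). Summed neutrophil markers were also highest there, at 15.5 TPM against 3.15 to 8.63 TPM, with *S100a9* the most abundant of the 12, *S100a8* led by the library at 5.91 TPM, and the defining markers *Ly6g* and *Camp* near 0 over all libraries (means of 0.0077 and 0.0072 TPM). Summed macrophage markers in male WT replicate 4 were 96.5 TPM, close to the 95.4 TPM of male WT replicate 2. The part of these genes and markers in the values of *Cxcl1*, *Ccl7* and *Ccl2* was not tested.

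**Figure D1:**
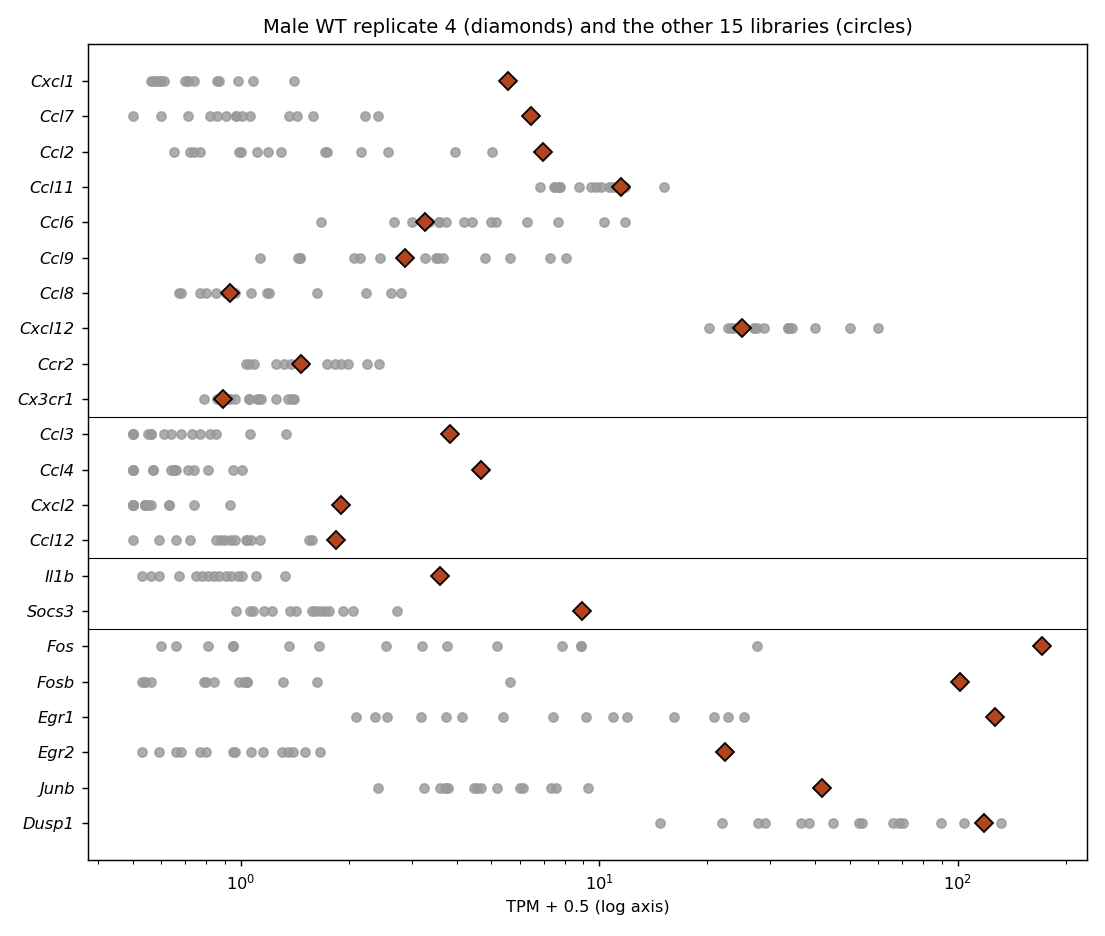
TPM + 0.5 on a log axis of the 10 chemokine and receptor genes, 4 further chemokine genes, 2 inflammatory genes and 6 immediate early genes, with a diamond for male WT replicate 4 and a circle for each of the other 15 libraries. The diamonds of *Cxcl1* (5.05 TPM) and *Ccl7* (5.93 TPM) stand clear of every circle, as do those of *Fos* and *Fosb*, whereas the diamond of *Ccl6* (2.77 TPM) lies among the circles.

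Female WT replicate 4 stood apart in another way. The transcript ENSMUST00000240377, which matched no gene of the annotation used here, was at 165083 TPM there, 16.5% of the library, and at 266 to 527 TPM in the other 15. The share of mitochondrial transcripts in this library was 34.5%, the lowest in a range of up to 59.8%. Since every library is scaled to the same TPM total, the other values of this library are lowered by the part that this transcript takes, and the female log2 differences of *Ccl6*, *Ccl9*, *Ccl11* and *Cxcl12*, the members tested in females, are given without it as well.

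The 10 genes spanned a wide range of levels within the chemokine system. Of the 61 ligand and receptor genes examined, 21 had a mean of at least 1 TPM over the 16 libraries, and *Ccl20* was listed at 0 in all. The most abundant was *Ackr3*, an atypical receptor that removes CXCL12, with a mean of 33.1 ± 7.26 TPM (SD, n = 16), followed by *Cxcl12* itself at 31.4 ± 10.6 TPM, and these neighbours did not differ beyond their spread. *Ccl11* came next after *Ccl27a* (22.3 TPM), at 9.14 ± 2.19 TPM, and was within its spread of *Cxcl9* at 8.15 TPM. *Ccl6* (4.47 ± 2.77 TPM) and *Ccl9* (2.92 ± 2.08 TPM) lay in the middle of the order, and their ranges of mean ± SD overlapped. *Ccl2* (1.54 ± 1.80 TPM) and *Ccr2* (1.07 ± 0.416 TPM) were the last of the 10 above 1 TPM. Below it came *Ccl7* (0.991 TPM), *Ccl8* (0.768 TPM), *Cx3cr1* (0.570 TPM) and *Cxcl1* (0.569 TPM), whose spreads overlapped. *Ccl27a*, *Ccl21a*, *Ccl19* and *Ackr1* share 57, 80.6, 58.8 and 23% of their 31-base words with other genes, so their levels are uncertain, whereas the 10 genes share at most 3.75%.

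No member of the set passed the genome-wide threshold in either sex (limma, Benjamini-Hochberg adjusted p under 0.05). In males 1 of 12177 genes passed (0.00821%), which was *Mfap5*, and 2281 had an unadjusted p under 0.05. In females 0 of 12141 genes passed with limma (0.00%), and 2077 had an unadjusted p under 0.05. Most genes had higher mean values in KO, 79.9% of those tested in males and 62.7% in females, and the median log2 difference of all genes tested was 0.16 in males and 0.10 in females. Rescaling by median-of-ratios factors, which centre the median gene by construction, set these medians to 0.004 and 0.01. The differences below are given on the scale of log2(TPM + 0.5), which understates the change of low genes, and are to be read against those medians.

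**Figure D2:**
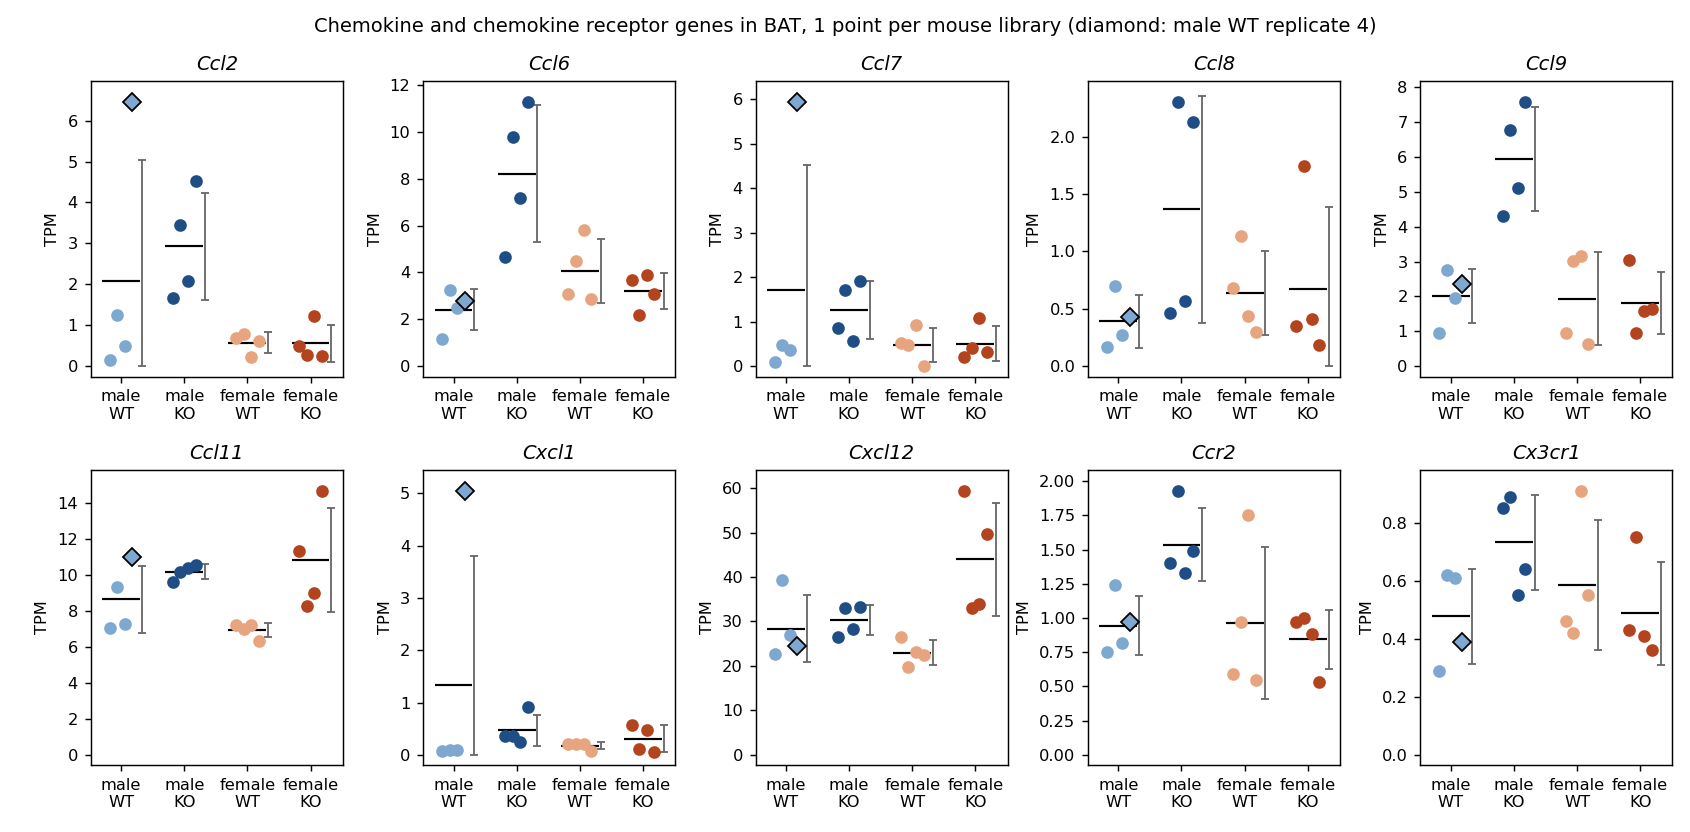
TPM of the 10 chemokine and receptor genes in BAT of WT and KO mice of each sex, with 1 point per library (n = 4 per group), a diamond for male WT replicate 4, a horizontal line for the group mean and a bar for the SD, drawn no lower than 0. In males every KO point lies above every WT point for *Ccl6*, *Ccl9* and *Ccr2*, and in females for *Ccl11* and *Cxcl12*.

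*Ccl6* and *Ccl9* encode closely related CC ligands of myeloid cells that bind CCR1, and both were higher in KO in males. *Ccl6* was 1.17, 3.23, 2.50 and 2.77 TPM in the male WT libraries and 4.64, 9.77, 7.17 and 11.3 TPM in the male KO libraries. The lowest KO library was above the highest WT library, and male WT replicate 1 was the lowest of all 16. The means were 2.42 ± 0.885 TPM in WT and 8.21 ± 2.92 TPM in KO (SD, n = 4 each), a 3.40-fold ratio, and the log2 difference of 1.57 ± 0.313 (SE) had an adjusted p of 0.142 with limma and an exact permutation p of 0.0286. *Ccl6* therefore did not pass the threshold over all genes in the fit of the male libraries, although the KO and WT values did not overlap. In 1 fit of all 16 libraries it passed (1.57, adjusted p = 0.0396 with limma), and over all alternatives its adjusted p ran from 0.0396 to 0.559.

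In females *Ccl6* was 3.06, 4.50, 5.80 and 2.85 TPM in WT and 3.69, 2.18, 3.91 and 3.08 TPM in KO. The groups overlapped, and the mean was lower in KO (4.05 ± 1.38 against 3.22 ± 0.772 TPM, log2 difference -0.27 ± 0.238, adjusted p = 0.535 with limma, and from -0.40 without female WT replicate 4 to -0.10 without female WT replicate 3). The sign of this log2 difference turned, at 0.03, with the prefix of the library name in the fit. The difference between the sexes was tested directly as an interaction over all 16 libraries, in which 0 of 12210 genes passed with limma (0.00%) and 1737 had an unadjusted p under 0.05. *Ccl6* had an interaction of -1.84 ± 0.418 (female minus male, SE), with an adjusted p of 0.215, equal to the smallest adjusted p of any gene in that test. This smallest value was a tie and not particular to *Ccl6*. The macrophage markers *Csf1r*, *Mrc1*, *Folr2* and *Gpnmb* were among the genes that shared it.

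*Ccl9* followed the same order. It was 0.96, 2.76, 1.95 and 2.36 TPM in male WT and 4.31, 6.78, 5.12 and 7.57 TPM in male KO, again with no overlap. Its means were 2.01 ± 0.771 and 5.95 ± 1.49 TPM, a 2.96-fold ratio, and the log2 difference of 1.39 ± 0.265 had an adjusted p of 0.135 with limma and an exact permutation p of 0.0286. In females the values were 0.94, 3.01, 3.17 and 0.63 TPM in WT and 3.05, 0.96, 1.57 and 1.65 TPM in KO. Both female groups covered nearly the whole female range, with means of 1.94 ± 1.34 and 1.81 ± 0.883 TPM and a log2 difference of 0.04 whose sign turned under both rescalings and, at -0.27, without female WT replicate 4, and which was 0.30 without female WT replicate 3. The interaction of *Ccl9* was -1.36 ± 0.544 (adjusted p = 0.280 with limma).

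Male WT replicate 4 did not set these male values. Without it, *Ccl6* had a log2 difference of 1.65 (adjusted p = 0.102 with limma) and *Ccl9* of 1.48 (adjusted p = 0.0941). Male WT replicate 1, with the largest mitochondrial share (59.8%), mattered more. Leaving it out gave the smallest differences of any single omission, 1.32 for *Ccl6* and 1.15 for *Ccl9*. Over all alternatives the limma adjusted p of *Ccl9* ran from 0.0573 to 0.571. Library names begin with a number or code whose meaning is not given in the sources used here, and 2 of the male WT and 3 of the male KO libraries share the prefix 9. Within that prefix the log2 difference was 1.64 for *Ccl6* and 1.38 for *Ccl9*. The values of the pair also went together from library to library, with a Pearson r of 0.862 over the 16 libraries, which share genotype and sex differences, and of 0.871 without male WT replicate 4.

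Most of the TPM of both genes was assigned to transcript models without a coding sequence. For *Ccl6*, 58.6% of the TPM went to a retained intron model (ENSMUST00000138145) and 39.7% to a protein-coding model (ENSMUST00000019071). For *Ccl9*, 66.6% went to a processed transcript (ENSMUST00000136131) and 33.4% to the protein-coding model (ENSMUST00000019266). In males the coding model of *Ccl6* was at 0.32, 1.24, 0.79 and 1.76 TPM in WT and 2.05, 3.80, 2.85 and 4.14 TPM in KO. That of *Ccl9* was at 0.21, 0.81, 0.46 and 1.14 TPM in WT and 1.24, 1.67, 1.62 and 2.34 TPM in KO. All 4 of these models had every male KO library above every male WT library, so the male order held for coding and noncoding models alike. They are parts of 2 gene sums already seen without overlap, and the share over all transcript models was not computed. The count of 4 is thus only a description. The division of reads between overlapping models is an estimate.

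Macrophage markers moved with *Ccl6* and *Ccl9* in males. Of 17 markers, 13 were tested in males and all 13 had higher means in KO, with a median log2 difference of 1.03, and 9 had every KO library above every WT library, among them *Lyz2*, *Cd68*, *C1qa*, *C1qb* and *C1qc*, beside 9.54% of all 12177 genes tested in males. *Trem2* and *Gpnmb*, both among the 9, reached the minimum of 1 TPM only through the KO libraries (means of 0.406 and 0.645 TPM in WT and 2.0 and 3.73 TPM in KO). The summed level was 50.0, 95.4, 62.5 and 96.5 TPM in male WT and 127, 183, 143 and 189 TPM in male KO. It was 75.7, 78.7, 129 and 60.6 TPM in female WT and 119, 80.1, 87.1 and 108 TPM in female KO, where 8 of 11 tested markers had higher means, the median was 0.11, no marker had every KO library above every WT library and *Mrc1* had every one below. The most abundant was *Lyz2* with a mean of 40.9 TPM, whereas *Marco* and *Timd4* were near 0 (0.015 and 0.089 TPM). *Cd68*, *C1qa* and *C1qb* rose in KO in the mean over both sexes, by 0.77, 0.65 and 0.73 on the log2 scale (limma adjusted p of 0.0301, 0.0424 and 0.0427). They were 3 of 12 tested, beside 2.95% of all genes. Macrophage markers were not alone in this. In males all 10 tested fibroblast and adipose progenitor markers also had higher means in KO (median 0.93). Of these, 6 had every KO library above every WT library, beside the same 9.54% of all genes. Red blood cell markers had a male median of 0.78. In bulk tissue more or fewer cells of a type and more or less RNA per cell cannot be told apart.

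Set against the summed macrophage markers, both genes still had higher means in male KO. *Ccl9* was 2.60 ± 0.529 TPM per 100 TPM of macrophage markers in male WT and 3.68 ± 0.254 in male KO, with ranges of 1.93 to 3.12 and 3.40 to 4.01 that did not overlap. *Ccl6* was 3.15 ± 0.711 per 100 TPM in male WT and 5.00 ± 0.972 in male KO, and its ranges of 2.33 to 4.0 and 3.66 to 5.97 overlapped. In females *Ccl6* was 4.74 ± 0.706 per 100 TPM in WT and 3.29 ± 0.813 in KO, with ranges of 4.05 to 5.72 and 2.73 to 4.49 that overlapped. Female *Ccl9* was 2.14 ± 1.29 per 100 TPM in WT and 1.77 ± 0.582 in KO, also with overlap. The part of the macrophage markers in the male values of *Ccl6* and *Ccl9* was not tested beyond these ratios.

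**Figure D3:**
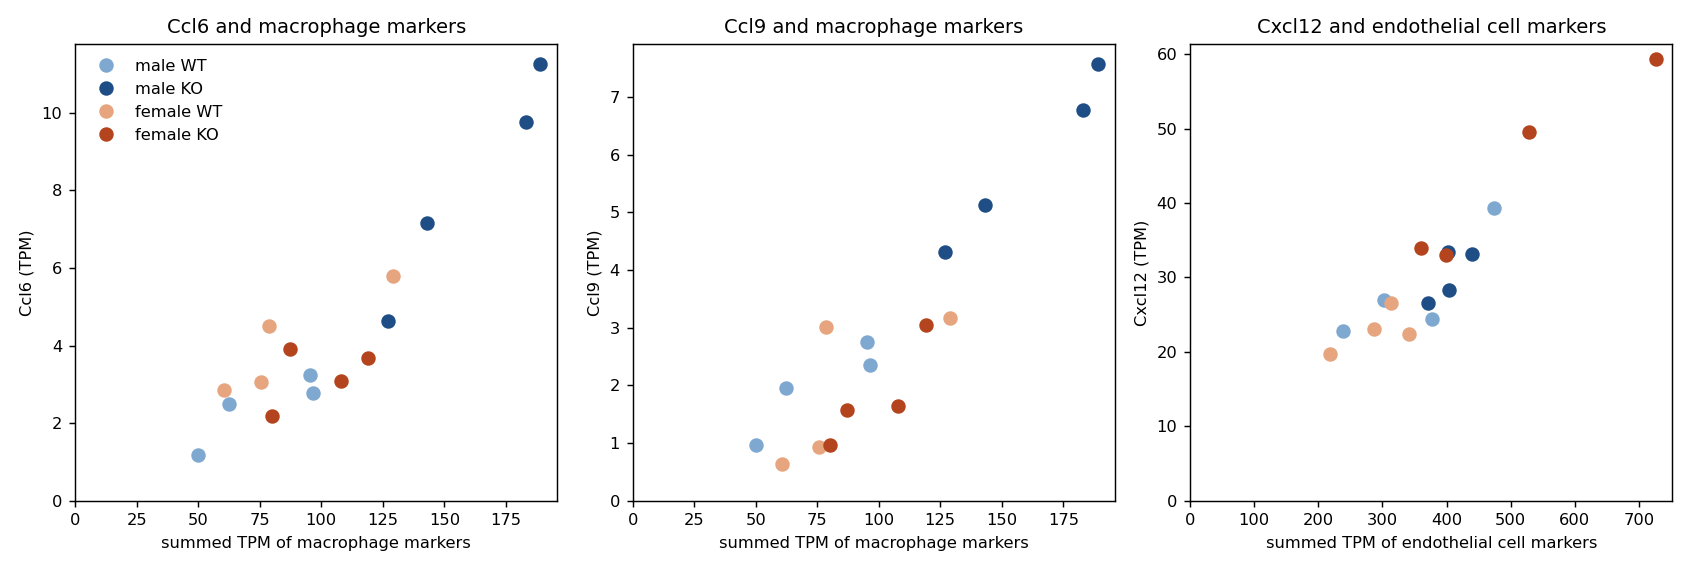
TPM of *Ccl6* and *Ccl9* against the summed TPM of 17 macrophage markers, and of *Cxcl12* against the summed TPM of 8 endothelial cell markers, with 1 point per library colored by group. The male KO libraries lie above the male WT libraries on both axes of the macrophage plots, and female KO replicate 1 has the highest endothelial sum (727 TPM) and the highest *Cxcl12* (59.4 TPM).

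Likeness across libraries was measured against 12204 genes. The highest Pearson r with *Ccl6* over the 16 libraries belonged to *Fcgr3* (0.915), *C1qc* (0.908) and *Lcp1* (0.905), and without male WT replicate 4 to *Adgre1* (0.946), *Lgals3* (0.931) and *C1qc* (0.917). For *Ccl9* they were *Nckap1l* (0.947), *Rab8b* (0.938) and *Tyrobp* (0.919), and without male WT replicate 4 *Nckap1l*, *Rab8b* and *Lilrb4a* (0.948, 0.946 and 0.924). These correlations describe libraries that share sex and genotype differences.

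*Ccl6* and *Ccl9* are neighbours on chromosome 11, in the gene order *Ccl5*, *Ccl9*, *Ccl6*, *Ccl3* and *Ccl4* of the RefSeq GRCm38.p6 annotation. Of these 5, *Ccl3* and *Ccl4* had their peaks in male WT replicate 4, whereas *Ccl6* and *Ccl9* were highest in male KO. Promoter sequences were found in the RefSeq GRCm38.p6 table for 7 of the 10 genes, all but *Ccl2*, *Ccl7* and *Ccl11*, and those of *Ccl6* and *Ccl9* are shown because the values of the pair went together. They are the 250 bases before the gene start, on the minus strand of chr11:83593088-83593337 for *Ccl6* and of chr11:83578637-83578886 for *Ccl9*, written 5′ to 3′. Capitals mark ACTTCC, which is GGAAGT, an ETS family core motif, read on the opposite strand.
Ccl6: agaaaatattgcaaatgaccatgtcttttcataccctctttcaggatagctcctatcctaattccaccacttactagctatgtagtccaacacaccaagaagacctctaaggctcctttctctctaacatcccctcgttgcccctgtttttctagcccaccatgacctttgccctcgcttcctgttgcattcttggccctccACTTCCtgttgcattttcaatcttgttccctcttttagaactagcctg
Ccl9: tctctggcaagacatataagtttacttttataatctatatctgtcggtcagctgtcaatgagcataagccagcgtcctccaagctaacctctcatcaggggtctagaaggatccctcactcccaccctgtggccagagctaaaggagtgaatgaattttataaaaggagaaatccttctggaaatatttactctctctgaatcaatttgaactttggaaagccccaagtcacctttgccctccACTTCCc
The match lay 48 to 43 bases before the start in *Ccl6* and 7 to 2 bases before it in *Ccl9*. It sat within GCCCTCCACTTCC, the longest stretch that both promoters shared, at 13 bases. GGAAGT was found on either strand in 19.7% of all 32851 promoters of this length in the table, so a match is common and is given only as a description. TGANTCA, an AP-1 motif, was found on either strand in *Ccl9* alone of the 7 (6.75% of all promoters), and TATAAA in *Ccl8* and *Ccl9* (12.4%).

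*Ccl2*, *Ccl7* and *Cxcl1* encode attractants of monocytes and neutrophils that many cell types make on inflammatory stimulation, and in males their comparison depended on single libraries, most of all on WT replicate 4. *Ccl2* was 0.15, 1.24, 0.50 and 6.45 TPM in male WT and 1.66, 3.46, 2.07 and 4.52 TPM in male KO. Every KO library was above WT replicates 1 to 3 and below WT replicate 4. Over all 8 libraries the means were 2.08 ± 2.94 and 2.93 ± 1.31 TPM and the log2 difference was 0.95 ± 0.662 (adjusted p = 0.441 with limma), and 0.50 without WT replicate 1. Without WT replicate 4 the WT mean was 0.631 ± 0.555 TPM (n = 3), and the log2 difference was 1.63 ± 0.403 (adjusted p = 0.108 with limma). As the library left out held the highest *Ccl2* value, the lack of overlap without it follows from its removal and is only a description. In females *Ccl2* ranged from 0.22 to 0.79 TPM in WT and from 0.24 to 1.22 TPM in KO, below the mean minimum for the fit, and its groups overlapped (exact permutation p = 0.771).

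*Ccl7*, the next gene to *Ccl2* on chromosome 11, was 0.10, 0.47, 0.36 and 5.93 TPM in male WT and 0.86, 1.72, 0.56 and 1.91 TPM in male KO. It reached the mean minimum of 1 TPM in males only through WT replicate 4. Its log2 difference was 0.32 ± 0.691 over all 8 libraries (adjusted p = 0.813 with limma) and 1.07 without that library, which held the highest value, and every KO library was above the remaining WT libraries. The sign of *Ccl7* over 8 libraries was not stable, at -0.07 without male WT replicate 1 and -0.40 with the library prefix in the fit. In females it lay between 0 and 1.09 TPM, with 0 in WT replicate 4, and overlapped between genotypes (log2 difference 0.06, exact permutation p = 0.914).

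*Cxcl1* showed the widest gap. It was 0.08, 0.10, 0.09 and 5.05 TPM in male WT and 0.37, 0.36, 0.24 and 0.91 TPM in male KO. The WT mean was 1.33 ± 2.48 TPM with replicate 4 and 0.0894 ± 0.00696 TPM without it, so the log2 difference was -0.14 over 8 libraries (exact permutation p = 1.0) and 0.67 over 7. It was -0.42 without WT replicate 1 and -0.40 without WT replicate 2. The direction of the male comparison thus depended on WT replicate 4. In females *Cxcl1* was at most 0.21 TPM in WT and 0.58 TPM in KO, with overlap (log2 difference 0.21, exact permutation p = 0.429). *Cxcl1* had *Fosb* (r = 0.918), *Egr2* (0.911) and *Mir125a* (0.888) as its most similar genes over 16 libraries. Over the 15 without male WT replicate 4 they were *Dimt1* (0.802), *Tuba1a* (0.790) and *Ppfia1* (0.770), so no immediate early gene was among the 3 closest. The r of *Cxcl1* with the immediate early genes over 15 libraries is not given here.

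Over 16 libraries, with the shared peak in male WT replicate 4, r was 0.827 for *Ccl2* and *Ccl7*, 0.858 for *Ccl7* and *Cxcl1* and 0.744 for *Ccl2* and *Cxcl1*. Without that library these were 0.742, 0.674 and 0.661, and *Ccl6* then had values as high with the same genes (0.817 with *Ccl2*, 0.812 with *Ccl7* and 0.686 with *Cxcl1*), so the likeness was not particular to these 3. The gene most like *Ccl2* was *Zfand3* with and without that library (0.914 and 0.953), and *Mmp12*, a macrophage protease, was among the 3 closest without it (0.914). For *Ccl7* the closest were *Psme3* (0.849) over 16 libraries and *Pon2* (0.896) over 15. The promoter of *Cxcl1* is shown because the gene had the clearest single-library peak of the members, in male WT replicate 4. It is the plus strand of chr5:90890995-90891244 in RefSeq GRCm38.p6, the 250 bases before the start, with an NF-kB site in capitals that matches on both strands in overlapping positions, 71 to 62 and 70 to 61 bases before the start.
Cxcl1: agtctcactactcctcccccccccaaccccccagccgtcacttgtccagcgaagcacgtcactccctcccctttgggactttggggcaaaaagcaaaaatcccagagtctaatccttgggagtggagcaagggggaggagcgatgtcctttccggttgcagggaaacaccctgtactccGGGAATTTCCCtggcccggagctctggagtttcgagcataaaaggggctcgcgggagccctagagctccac
The same motif was found in 3.90% of the 32851 promoters and in 2 of the 7 promoters of these genes, *Cxcl1* and *Ccl9*. It is a match of letters and no measurement of binding. Of the 22 inflammatory inducers and NF-kB targets, only 3 were led by male WT replicate 4. *Nfkbia* was at 24.02 TPM there and at up to 39.45 TPM elsewhere, and *Nfkb2*, *Relb* and *Bcl3* were also higher in another library. *Nfkbiz*, *Ier3* and *Tnfaip3* were highest in male WT replicate 4 without being led by it. The part of NF-kB in the *Cxcl1* peak was not tested.

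*Ccl8* encodes a further monocyte attractant of the same cluster on chromosome 11. It was 0.17, 0.70, 0.27 and 0.43 TPM in male WT and 0.46, 2.30, 0.57 and 2.13 TPM in male KO. Male KO replicates 2 and 4 were the highest of all 16 libraries, while KO replicates 1 and 3 lay within the WT range. Its log2 difference of 0.93 had an exact permutation p of 0.114, and in females it was -0.07 (exact permutation p = 0.857). *Ccl8* was below the mean minimum in both sexes and was not in the limma fit. Its most similar genes were *Mir6921* (r = 0.874), *Hnrnpr* (0.809) and *Sdr42e1* (0.796).

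*Cxcl12* had the clearest female difference among the 10 genes. It was 26.5, 19.7, 23.1 and 22.4 TPM in female WT and 59.4, 33.0, 33.9 and 49.6 TPM in female KO. No KO library reached down into the WT range, and KO replicates 1 and 4 were the highest of all 16 libraries. The means were 22.9 ± 2.81 and 44.0 ± 12.8 TPM, a 1.92-fold ratio, and the log2 difference of 0.89 ± 0.207 had an adjusted p of 0.231 with limma and an exact permutation p of 0.0286. In males it was 22.8, 39.3, 27.0 and 24.5 TPM in WT and 26.6, 33.1, 28.3 and 33.4 TPM in KO. The male groups overlapped, with male WT replicate 2 highest (log2 difference 0.12 ± 0.173, adjusted p = 0.715 with limma, -0.05 after median-of-ratios rescaling, and from 0.03 without male WT replicate 1 to 0.29 without male WT replicate 2). The interaction was 0.77 ± 0.279 (female minus male, adjusted p = 0.256 with limma). Without female WT replicate 4 the female log2 difference of *Cxcl12* was 0.88 (adjusted p = 0.328 with limma). Within the prefixes that hold both female genotypes, the log2 difference was 1.15 in prefix 10 (1 WT, 1 KO) and 0.64 in prefix 8b (3 WT, 1 KO).

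The transcript models of *Cxcl12* did not move alike. The gene has 3 protein-coding models in the annotation, of 119 codons (ENSMUST00000073043, 63.5% of the gene's TPM), of 89 codons (ENSMUST00000112866, 18.8%) and of 93 codons (ENSMUST00000112871, 12.8%). They were examined one by one after the gene values were seen, and the share of all transcript models without overlap was not computed. The 93-codon model was 1.61, 1.92, 1.55 and 0.52 TPM in female WT and 12.7, 5.84, 6.41 and 7.63 TPM in female KO, a log2 difference of 2.20 (exact permutation p = 0.0286). Unlike the gene as a whole, it also had every male KO library above every male WT library, with 1.64, 3.42, 1.15 and 2.12 TPM in WT and 4.62, 5.85, 3.75 and 3.49 TPM in KO (log2 difference 0.98, exact permutation p = 0.0286). The 119-codon model had female means of 14.7 ± 1.76 TPM in WT and 26.6 ± 10.0 TPM in KO and male means of 19.1 and 19.2 TPM. The 89-codon model had female means of 4.90 ± 1.44 and 7.66 ± 0.319 TPM and male means of 5.39 and 5.66 TPM. The 119-codon and 89-codon models thus had no overlap in females and overlap in males. The models overlap in the genome, so the division of reads between them is an estimate.

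*Ccl11* had the narrower female difference. It was 7.22, 6.97, 7.21 and 6.34 TPM in female WT and 11.3, 8.29, 8.99 and 14.7 TPM in female KO. The WT libraries lay close together and below all KO libraries, with means of 6.93 ± 0.415 and 10.8 ± 2.87 TPM, a 1.56-fold ratio, and a log2 difference of 0.57 ± 0.172 (adjusted p = 0.231 with limma, exact permutation p = 0.0286). Without female WT replicate 4 it was 0.53 (adjusted p = 0.328). After either rescaling its female groups overlapped, whereas those of *Cxcl12* did not. In males *Ccl11* was 7.02, 9.31, 7.27 and 10.96 TPM in WT and 9.58, 10.2, 10.3 and 10.6 TPM in KO. Male WT replicate 4 lay above all KO libraries and WT replicates 1 to 3 below them, and the log2 difference was 0.24 ± 0.140 with it (adjusted p = 0.360 with limma) and 0.36 without it (adjusted p = 0.138), and 0.16 without male WT replicate 1. The interaction was 0.33 ± 0.226 (adjusted p = 0.520 with limma), and 0.18 without female KO replicate 4.

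*Cxcl12* and *Ccl11* came nearest to the threshold in the mean effect over both sexes. In that comparison 360 of 12210 genes passed with limma (2.95%), 317 of them higher in KO, and none of the 6 tested members was among them. The count of 360 ran from 31 to 1055 when 1 library was left out, and its split moved with scaling, as given below. *Cxcl12* had a mean log2 difference of 0.50 ± 0.140 and *Ccl11* of 0.41 ± 0.113, both with an adjusted p of 0.0585. *Ccl11* passed when male WT replicate 2 or 4 or female KO replicate 2 or 3 was left out (0.43 to 0.47, limma adjusted p of 0.0318 to 0.0428), and over all alternatives its adjusted p ran from 0.0318 to 0.284. *Cxcl12* passed without male WT replicate 2 or female KO replicate 2 or 3 (0.56 to 0.59, limma adjusted p of 0.0189 to 0.0358), with a range of 0.0189 to 0.289. *Ccl6* (0.65 ± 0.209, adjusted p = 0.0857) and *Ccl9* (0.71 ± 0.272, adjusted p = 0.132) did not pass, and their differences came from the males.

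Endothelial and mural cell markers moved with *Cxcl12* and *Ccl11* in females. All 8 endothelial markers had higher means in female KO, with a median log2 difference of 0.75, and 4 had every KO library above every WT library, *Pecam1*, *Cdh5*, *Tek* and *Emcn*, beside 4.90% of all 12141 genes tested in females. Their summed level was 314, 219, 287 and 341 TPM in female WT and 727, 399, 360 and 528 TPM in female KO, and 239, 474, 302 and 378 TPM in male WT and 371, 439, 404 and 403 TPM in male KO, where the median was 0.23 and no marker was free of overlap. *Egfl7* was the most abundant at 141 TPM, and all 8 had a mean of at least 1 TPM. *Cdh5*, the endothelial cadherin, rose in the mean over both sexes (0.65, limma adjusted p = 0.0358), 1 of 8 tested beside 2.95% of all genes. Pericyte and smooth muscle markers summed to 148, 120, 135 and 131 TPM in female WT and 278, 155, 189 and 273 TPM in female KO, and to 115, 181, 148 and 149 TPM in male WT and 192, 193, 209 and 168 TPM in male KO. All 7 had higher means in KO in both sexes (medians 0.69 in females and 0.43 in males), and *Rgs5* was the most abundant at 98.9 TPM. *Pdgfrb* and *Rgs5* had no overlap in females, beside the same 4.90% of all genes, and *Rgs5* had none in males either, beside 9.54%. In the mean over both sexes *Pdgfrb* (0.50) and *Rgs5* (0.40) rose (limma adjusted p of 0.0356 and 0.0360), 2 of 7 tested.

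*Cxcl12* and *Ccl11* were also set against the summed markers. *Cxcl12* was 8.01 ± 1.04 TPM per 100 TPM of endothelial markers in female WT and 8.82 ± 0.691 in female KO, and 8.31 ± 1.32 and 7.49 ± 0.573 in males. *Ccl11* was 2.46 ± 0.550 and 2.23 ± 0.531 per 100 TPM of endothelial markers in females. These endothelial ratios overlapped between genotypes. Per 100 TPM of pericyte and smooth muscle markers, *Cxcl12* was 17.1 ± 0.580 in female WT (16.5 to 17.9) and 19.7 ± 1.91 in female KO (17.9 to 21.4), whereas the male mean was lower in KO (19 ± 2.25 in WT and 16.1 ± 3.0 in KO), with overlap. *Ccl11* set against these pericyte and smooth muscle markers had a lower mean in KO in both sexes, with overlap. It was 5.22 ± 0.463 in WT and 4.88 ± 0.609 in KO in females, and 5.87 ± 1.1 and 5.37 ± 0.616 in males. Per 100 TPM of fibroblast and adipose progenitor markers, *Cxcl12* was 9.98 ± 1.36 in female WT and 13.7 ± 0.994 in female KO, with no overlap, whereas in males every KO library (9.22 ± 0.821, 8.43 to 10.0) lay below every WT library (13 ± 2.05, 10.1 to 14.9), so the ratio depended on which cell type it was set against. *Ccl11* per 100 TPM of the same markers was also lower in every male KO library (3.03 to 3.16) than in every male WT library (3.20 to 4.52), and overlapped in females (3.03 ± 0.379 and 3.46 ± 0.759). Beyond these ratios, the part of the markers in the *Cxcl12* and *Ccl11* values was not tested. Across libraries the genes most like *Cxcl12* were *Podxl* (r = 0.958), *Efnb1* (0.956) and *Rps6* (0.955), and without male WT replicate 4 *Rps6*, *Cd300lg* and *Podxl*. *Ccl11* was most like *Fkbp5* (0.925), *Gpr160* (0.921) and *Sqstm1* (0.915), and without that library most like the pericyte marker *Rgs5* (0.942). *Cxcl12* and *Ccl11* had an r of 0.742 over 16 libraries and of 0.824 over 15.

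Of the receptors, *Ccr2* was the more abundant. It was 0.75, 1.24, 0.82 and 0.97 TPM in male WT and 1.40, 1.93, 1.33 and 1.49 TPM in male KO. The male groups did not overlap, with means of 0.944 ± 0.218 and 1.54 ± 0.269 TPM, a 1.63-fold ratio, and the log2 difference of 0.50 ± 0.175 had an adjusted p of 0.219 with limma and an exact permutation p of 0.0286. In females it was 0.59, 0.97, 1.75 and 0.55 TPM in WT and 0.97, 1.0, 0.88 and 0.53 TPM in KO, with full overlap (log2 difference -0.07). The interaction was -0.57 ± 0.337 (adjusted p = 0.463 with limma), and -0.34 without female WT replicate 3. Per 100 TPM of macrophage markers, *Ccr2* was 1.28 ± 0.202 in male WT and 0.969 ± 0.140 in male KO, with overlap, and so lower in mean in KO where *Ccl6* and *Ccl9* were higher.

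*Cx3cr1*, the receptor of the membrane-bound ligand encoded by *Cx3cl1*, was low throughout, from 0.29 to 0.91 TPM. Male WT libraries ranged from 0.29 to 0.62 TPM and male KO libraries from 0.55 to 0.89 TPM (log2 difference 0.34, exact permutation p = 0.114), and the female log2 difference was -0.14. *Cx3cr1* and *Ccr2* had an r of 0.736 with each other over the 16 libraries. *Ccr2* was most like *Csrnp2* (0.895), *Mcm2* (0.887) and *Pot1a* (0.868), and *Cx3cr1* most like *Smarcd1* (0.931), *Tnk2* (0.896) and *Eaf1* (0.870).

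The counts of members without overlap stand here beside those of all genes tested, and the members had been chosen with earlier results known. In males 1162 of 12177 genes (9.54%) had every KO library above every WT library and 82 (0.673%) had every one below, against 3 of the 7 tested members above (*Ccl6*, *Ccl9* and *Ccr2*) and 0 below. *Ccr2* reached the minimum of 1 TPM in males only through the KO libraries (0.944 TPM in WT), so its place in that count and in the male median is no support. Without WT replicate 4 the background was 2408 genes (19.8%), and *Ccl2*, *Ccl7*, *Ccl11* and the untested *Cxcl1* were above as well. That library held the highest male WT value of each of these 4 genes, so the larger count follows from leaving it out and nothing is read from it. In females 595 of 12141 genes (4.90%) had every KO library above and 387 (3.19%) every one below, against 2 of the 4 tested members above (*Ccl11* and *Cxcl12*) and 0 below. After median-of-ratios rescaling the male count was 3 beside 4.88% of all genes and the female count was 1 (*Cxcl12*) beside 5.80%. With mitochondrial transcripts removed the counts were also 3 and 1, beside 7.11 and 6.34% of all genes.

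The median log2 difference of the tested members was 0.50 over 7 genes in males and 0.31 over 4 genes in females, where 3 were above 0, beside medians of 0.16 and 0.10 for all genes. All 7 male log2 differences were above 0, but *Ccl7* entered only through WT replicate 4, its sign was not stable, and its mean in TPM was lower in KO (1.71 ± 2.81 against 1.26 ± 0.653 TPM). Without that library the male median over the same 7 genes was 0.99, beside 0.19 for all genes, which describes the weight of 1 library and supports nothing further. The sexes also differed in level, with 546 of 12210 genes past the threshold with limma (4.47%), 475 of them higher in males. The count of 546 ran from 194 to 1021 when 1 library was left out, and its split moved with scaling, as given below. No member was past the threshold. *Ccl2* (male minus female 1.19 ± 0.396, adjusted p = 0.0979) and *Ccl9* (0.85 ± 0.272, adjusted p = 0.0871) came nearest, and both passed when male WT replicate 1 was left out (adjusted p of 0.0348 and 0.0454, with ranges over the alternatives of 0.0348 to 0.387 and 0.0454 to 0.363).

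The other 51 chemokine system genes gave the setting of ligands and receptors. In males 15 were tested, 0 passed with limma, 11 had higher means in KO, and the median log2 difference was 0.17, close to that of all genes. *Cxcr4*, the signaling receptor of CXCL12, was 0.85, 1.13, 1.17 and 1.46 TPM in male WT and 2.17, 2.36, 2.39 and 1.67 TPM in male KO (log2 difference 0.68 ± 0.167, adjusted p = 0.166 with limma). *Cxcl16*, a ligand that is also a scavenger receptor, had male means of 1.70 ± 0.588 and 3.06 ± 0.613 TPM (0.72 ± 0.214, adjusted p = 0.198 with limma). These were the 2 of the 15 without overlap in males, beside 9.54% of all genes, so the count was near that of all genes. In females 16 were tested, 0 passed with limma, and all 16 had higher means in KO with a median of 0.31, although *Ccl5*, *Cxcl10*, *Cxcr4* and *Ackr1* reached the minimum only through the KO libraries, and *Cxcl9*, a ligand of CXCR3, was the 1 gene without overlap (6.37 ± 1.47 against 8.59 ± 0.665 TPM, with 7.81 TPM the highest in WT and 7.94 TPM the lowest in KO), beside 4.90% of all genes. *Cxcl14* was higher in males than in females (0.66, limma adjusted p = 0.0258).

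Several partners of the 10 genes were barely present. *Ccr1*, the receptor of CCL6 and CCL9, had a mean of 0.063 TPM over the 16 libraries, *Ccr3*, the receptor of eotaxin, 0.0042 TPM, and *Cxcr2*, the receptor of CXCL1, 0.157 TPM. In contrast *Ackr3* was at 33.1 TPM, with log2 differences of 0.17 in males and 0.27 in females, and *Cx3cl1* at 3.75 TPM. Markers of eosinophils, which carry CCR3, summed to 1.14 ± 0.514 TPM in male WT and 2.31 ± 0.644 TPM in male KO, with sums that overlapped between genotypes in both sexes. *Ear2* was the most abundant of the 6 at 1.23 TPM (male log2 difference 0.76), and the defining markers *Siglecf* and *Epx* were near 0 (0.017 and 0.0035 TPM). The part of these markers in the chemokine values was not tested. The mean levels of *Ccl6*, *Ccl9* and *Ccl11* in BAT were therefore above those of their receptors on the TPM scale.

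Among the remaining lists, leukocyte adhesion genes had 5 tested in each sex, all 5 with higher means in KO in both (medians 0.52 in males and 0.15 in females). *Icam2* rose in the mean over both sexes (0.70, limma adjusted p = 0.0272), 1 of 5 tested beside 2.95% of all genes. Of the inflammatory inducers and NF-kB targets 10 were tested in each sex, and 0 passed with limma in either. Their medians were 0.25 in males (0.50 without male WT replicate 4) and 0.22 in females. *Tnfaip3* in males (0.910 TPM in WT) and *Socs3* and *Lcn2* in females (0.844 and 0.837 TPM in WT) reached the minimum of 1 TPM only through the KO libraries. *Socs3* reached it in males only through WT replicate 4, so nothing is read from these medians. Immediate early genes had a male median of -0.23 with male WT replicate 4 and of 0.75 without it, and a female median of 0.42. *Fosb*, *Egr2* and *Egr3* reached the minimum of 1 TPM in males only through male WT replicate 4, so nothing is read from the male medians. Fibroblast and adipose progenitor markers had all 10 tested genes higher in KO in both sexes (medians 0.93 in males and 0.24 in females), with sums of 168, 291, 181 and 243 TPM in male WT and 309, 336, 335 and 333 TPM in male KO, and *Ly6a* the most abundant at 90.3 TPM. In the mean over both sexes *Pi16*, *Col1a2*, *Thy1* and *Cd34* rose (limma adjusted p of 0.0293, 0.0347, 0.0313 and 0.0114). They were 4 of 10 tested, beside 2.95% of all genes. Monocyte markers, of which 3 of 7 were tested, had medians of 0.54 in males and 0.37 in females. Both medians were the value of a single gene, *Ace*, the most abundant of the list at 4.36 TPM. All 3 had higher means in KO in males, but 2 did in females, where *F13a1* was lower. Brown adipocyte markers had medians of -0.03 in males and 0.20 in females over 16 genes.

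The other marker lists held few abundant genes or varied widely within groups. T cell and NK cell markers had no gene at a mean of 1 TPM, and mesothelial markers had 1, in females only. Eosinophil, dendritic cell, lymphatic endothelial, B cell and platelet lists had at most 1 tested gene each, and that of the B cell list, *Ighm*, had log2 differences of 1.30 in males and -0.69 in females. The tested neutrophil markers had medians of -0.70 in males (-0.25 without male WT replicate 4) and -0.04 in females. The mast cell list had 1 tested gene in males (0.76) and a median of 0.27 over 5 in females, and Schwann cell and nerve markers had medians of 0.12 and -0.21. Red blood cell markers had medians of 0.78 in males and -0.21 in females. Skeletal muscle markers summed to between 2.24 TPM in female WT replicate 4 and 4600 TPM in male KO replicate 1, and every group held libraries far apart on this list.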

How the data were processed

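BAT of 16 mice was profiled by bulk RNA sequencing (stranded mRNA libraries, single-end reads). The authors quantified transcripts with kallisto (version 0.46.2 and GRCm39 per the submitters' processing notes) and deposited TPM per transcript and library, scaled to the same sum. The annotation release is not given in the sources used here. Of 137438 identifiers, 135051 matched GENCODE mouse M21 and 2387 did not, and TPM were summed per symbol over matched transcripts. Each library's group came from its labels. TPM were transformed to log2(TPM + 0.5). Genes with a mean of at least 1 TPM over the libraries of a fit were tested with limma 3.58.1 in R 4.3.3 (eBayes with a trend, two-sided, Benjamini-Hochberg threshold 0.05), within each sex and over all 16 libraries. Single genes were compared with two-sided exact permutation tests. The procedure was tested on simulated data. The study's DESeq2 test needs counts and was not run. Depth is unknown, so no counting intervals are given.

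The text names the 10 genes, *Gdf15*, genes of the written lists, the 3 genes most correlated with each member, and the 10 with the largest gap in male WT replicate 4, of which 1 is not reported here. *Mfap5*, *Ucp1* and single transcript models were named after their values were seen. The members and lists were chosen with earlier results of these data known. Alternatives changed the pseudocount, minimum, scaling, trend, replicate block, library prefix and libraries.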

Additional observations from a re-analysis of the deposited data

Results flagged for a closer look

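*Cxcl1* stood apart in 1 library of each WT group. In male WT, replicate 4 (5.05 TPM) was separated from the nearest of the other 3 by a gap of 0.99 of the group's log2 range, which restates the peak for which this library was singled out. In female WT, replicate 4 was the lowest at 0.07 TPM beside 0.20 to 0.21 TPM in the others, with a gap of 0.932 of the range, a difference between very low values. Of 40 combinations of gene and group examined, these 2 stood apart in this way. The share that chance alone gives was not tested, so nothing further is read from them.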

How the results depend on the processing

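Over all settings, 10 of 687 values of single members passed the limma threshold where they had not, 10 changed direction, and 667 did neither. Exceptions within the 667 were the interaction and the mean KO effect of *Ccl7*, neither of which was tested with all libraries. Without male WT replicate 1 the interaction went from -0.25 to 0.13 and the mean KO effect from 0.19 to just below 0. The male count of genes past the threshold (1) was 2 with a pseudocount of 0.1, 0 with no TPM minimum, 3 with median-of-ratios scaling, 6 with the library prefix as a covariate, 38 in 1 fit of all 16 libraries, and 0 (without male WT replicate 1, among others) to 5 (without male WT replicate 4) when 1 library was left out. *Ccl6* passed in males in the fit of all 16 libraries (1.57, adjusted p = 0.0396, range over alternatives 0.0396 to 0.559). The female count (0) was 8 with the prefix, 5 in the fit of all 16 libraries and 0 to 9 leaving out 1 library (9 without female KO replicate 2). The mean KO effect (360) gave 54 genes with no minimum, 177 at a minimum of 5 TPM, 12 with the prefix, and 31 (without male KO replicate 3) to 1055 (without male WT replicate 2). The interaction (0) gave 1 without the trend and 0 to 3 leaving out 1 library. The sex comparison (546) gave 262 with no minimum, 287 with mitochondrial transcripts removed, 93 with the prefix, and 194 (without male KO replicate 2) to 1021 (without female KO replicate 2). The split of calls also moved with scaling. Under median-of-ratios factors, 260 of 471 genes of the mean KO effect were higher in KO, beside 317 of 360, and 287 of 456 genes of the sex comparison were higher in males, beside 475 of 546. The genes led by male WT replicate 4 (21) were 42 at a ratio of 1.5, and *Ccl7* and *Cxcl1* were led at every ratio and scaling tried.

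With the replicate number as a block, the counts were 0 in males, 1 in females and 60 for the mean KO effect, and no member changed its side of the threshold. The numbers do not pair the mice, since libraries of the same number deviated together with r of -0.09 to 0.35 in males and -0.11 to 0.15 in females, and not every library matched its own number best. Male *Cxcl1*, tested by permutation over 8 libraries at -0.14, was 0.67 without male WT replicate 4 and -0.42 without male WT replicate 1. Male *Cxcl12* was -0.05 with median-of-ratios scaling. Male *Ccl7* was -0.40 with the prefix and -0.07 (without male WT replicate 1) to 0.53 (without male KO replicate 3) where it was tested. Without male WT replicate 4 it was below the minimum of 1 TPM, and its difference, outside the limma fit, was 1.07. Its mean KO effect over both sexes (0.19) was near 0 without male WT replicate 1. Female *Ccl9* was -0.04 with median-of-ratios scaling, -0.03 with mitochondrial transcripts removed, and -0.27 to 0.30 leaving out 1 library. Female *Ccl6* was 0.03 and the sex difference of *Ccl11* -0.04 with the prefix. The number of members without overlap, whose alternatives were chosen after seeing the data, was 3 to 7 of all 10 in males leaving out 1 library. The 7 came without male WT replicate 4, where 6 of the 7 tested members stood beside 19.8% of all genes tested, in place of 3 of 7 beside 9.54%, and the rise follows from leaving out the highest male WT library of the 4 genes that joined. In females it was 1 with median-of-ratios scaling (5.80% of all genes) and 1 with mitochondrial transcripts removed (6.34%), beside 2 (4.90%). Apart from fewer genes or libraries in a fit, the cause of these changes was not tested. Read depth is unknown and 4 mice per group limit every comparison.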
